A study of Mus musculus with 2 samples.

Results

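The genes described here are 50 components of TGF-beta and BMP signalling, chosen by name: ligands, receptors, secreted antagonists, latent TGF-beta binding proteins, Smad proteins and Smurf ubiquitin ligases. They and the other gene lists below were chosen with earlier results of these data known, so their shares are descriptions only. Of these 50 genes, 49 had an entry in the deposited table of 29126 entries, and Nog was not analysed here. Messenger RNA had been sequenced from mouse embryonic fibroblasts (MEFs) in 1 strand-specific library of Dnmt1+/+ cells and 1 of Dnmt1-/- cells. Dnmt1 maintains DNA methylation when cells divide, and both copies in the Dnmt1-/- cells carry a hypomorphic allele, one with reduced function. Both lines lack p53 as well, their strain is given as unknown, and whether each line is a clone is not given in the sources used here. The comparison asks how the messenger RNA of these genes differs between cells with normal and strongly reduced DNA methylation. The values are RPKM, which corrects the reads of a transcript for transcript length and library depth, so that levels of different genes can be set side by side. The change of a gene is log2(RPKM + 0.1) in Dnmt1-/- minus the same in Dnmt1+/+, a scale on which differences at low RPKM come out too small. With 1 library per genotype there is no spread between replicates and no test, and every difference compares these 2 libraries.

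In this family of secreted proteins, a dimeric ligand brings together type II and type I receptor kinases, and the type I receptor phosphorylates receptor-regulated Smads. TGF-beta and activin mainly use Smad2 and Smad3, and BMPs use Smad1, Smad5 and Smad9, which is also called Smad8. These join Smad4 and enter the nucleus to regulate transcription. Antagonists such as gremlin and follistatin bind ligands outside the cell, and the inhibitory Smads Smad6 and Smad7 and the Smurf ligases limit signalling inside it. In fibroblasts TGF-beta is best known for raising matrix production and contractility.

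The RPKM of Dnmt1 itself was 65.2 in Dnmt1+/+ MEFs and 14.5 in Dnmt1-/- MEFs. Of 13 fibroblast markers, 12 reached 1 RPKM in Dnmt1+/+ and 11 in Dnmt1-/-, and their summed RPKM was 7069 and 4813. Of the 12 that passed the filters given below, 8 stayed within 2-fold, 3 were lower (Thy1 at 4.84 and 0.129 RPKM, Col1a2 and Fn1) and 1 was higher (Pdgfra at 6.95 and 18.7). Of all entries that passed, 10.9% were lower and 8.47% higher by over 2-fold. Of 8 endothelial markers, 1 reached 1 RPKM in each library, namely Flt1, and their summed RPKM was 6.56 and 2.73. The defining endothelial genes Pecam1 (0.0119 and 0.0370 RPKM) and Cdh5 (0.00888 and 0.0841 RPKM) were near 0, and Tie1 and Cldn5 were listed at 0 in both libraries. The summed RPKM of 6 haematopoietic markers was 13.7 and 9.82, that of 7 epithelial markers 7.26 and 2.52, that of 6 skeletal muscle markers 29.3 and 46.3, and that of 5 neural markers 66.9 and 139.0. These sums hold genes that went opposite ways. Among the haematopoietic markers Cd34 was at 13.0 and 0.0917 RPKM, Csf1r at 0.0702 and 6.08, and Cd68 at 0.596 and 3.63, while Ptprc, which marks white blood cells, and Emr1, a macrophage gene, were listed at 0 in both libraries. The epithelial sum was mostly Krt19, at 6.90 and 0.326 RPKM, while a joint entry of Krt14 and Krt17 was at 0.0349 and 1.46. The muscle sum was mostly Acta1, at 28.8 and 42.8 RPKM, and Myf5 was at 0.106 and 3.28, while Des was at 0.318 and 0.0780. The neural sum was mostly Nes, at 49.996 and 125.8 RPKM, while Tubb3 was at 16.9 and 12.9. The lines also differed in sex-linked RNA, with 0.00648 RPKM of Xist in Dnmt1+/+ against 37.0 in Dnmt1-/-, while Ddx3y, a Y-linked gene, had 13.9 RPKM in Dnmt1+/+ and was listed at 0 in Dnmt1-/-. Whether these cell type markers have a part in the differences described next was not tested. Other differences between the cell lines cannot be told apart from the genotype. In bulk RNA, fewer cells of a type and less RNA per cell cannot be told apart either.

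Counts below use entries with status OK, the label Cuffdiff gives where enough reads were found, that also carry a symbol and reach 1 RPKM in either library. The listed genes had 50 entries, since Ltbp2 has 2 entries, and 40 entries of 39 genes passed these filters. Of the 40 entries, 10 (25%) were higher in Dnmt1-/- MEFs by over 2-fold, against 8.47% of all 11244 entries that passed. A further 6 (15%) were lower by over 2-fold, against 10.9% of all entries. The 10 higher entries are Bmp2, Gdf15, both entries of Ltbp2, Fstl3, Smad9, Smad6, Nbl1, Grem1 and Smad7. The 6 lower ones are Fst, Acvr2b, Acvr1b, Inhbb, Acvr2a and Tgfbr1. The median log2 change was 0.33 for the 40 entries and -0.14 for all 11244, and changes are to be read relative to that shift. The middle 50% of the 40 entries had changes from -0.45 to 1.12, and the middle 50% of all entries between -0.56 and 0.27. Because an entry under 1 RPKM in one library passed only through the other, 3 of the 10 higher and 3 of the 6 lower entries had to differ to be counted.

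**Figure D1:**
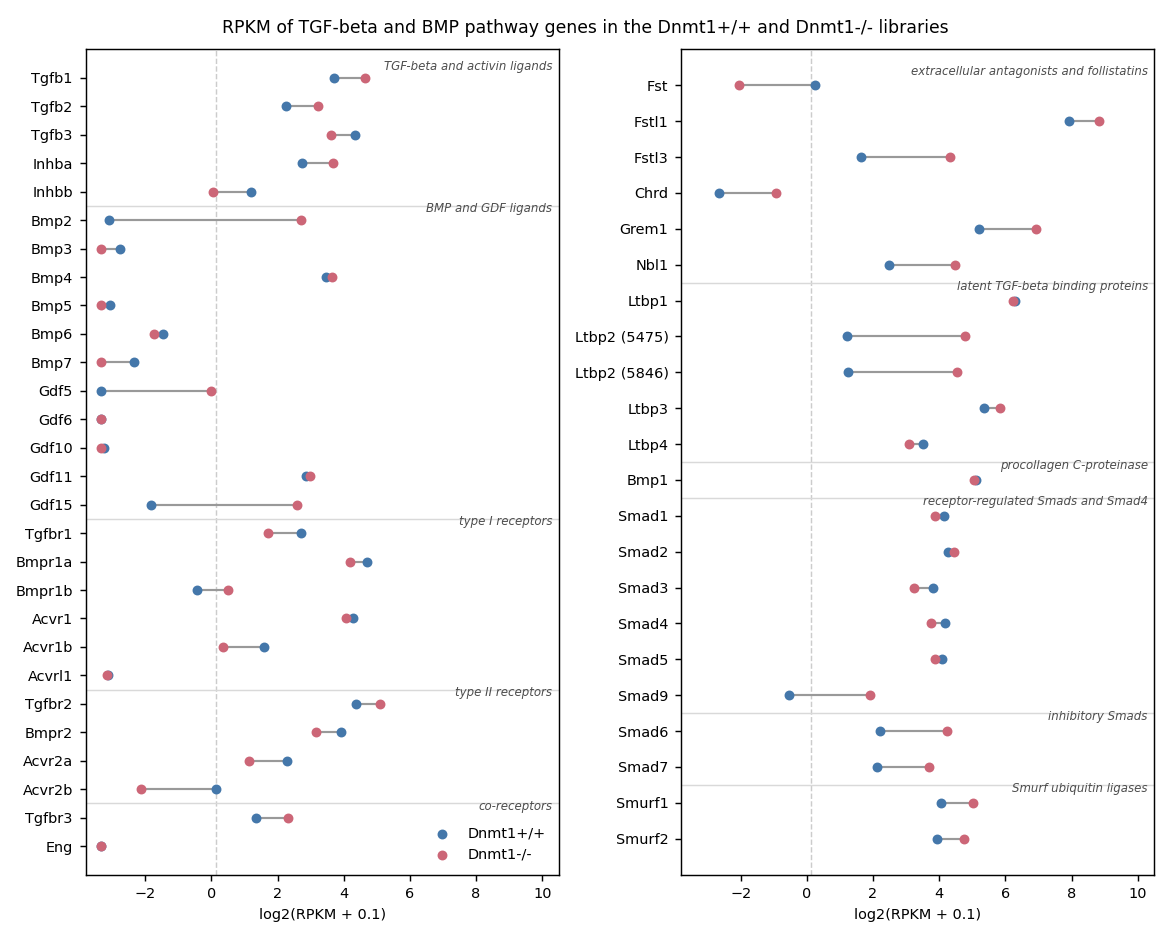
RPKM of the listed genes, grouped by role, on a log2(RPKM + 0.1) axis. Blue points are the Dnmt1+/+ library, red points the Dnmt1-/- library, the grey line joins both values of an entry, and the dashed line marks 1 RPKM, while the digits after Ltbp2 tell its entries apart. Bmp2 spans the longest distance, from 0.0164 to 6.44 RPKM, and Fstl1 lies furthest to the right in both libraries.

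The change of 7 members fell just short of 2-fold on this scale, namely Tgfb2 at 0.98, Tgfbr3 at 0.97, Smurf1 and Bmpr1b at 0.96, Inhba at 0.93, and Tgfb1 and Fstl1 at 0.92. After subtraction of the overall median change these 7 joined the higher entries, which then numbered 17 of 40, against 9.71% of all entries. With the same subtraction Tgfbr1, Acvr2a and Inhbb left the lower entries, so that 3 remained, against 8.58% of all entries. If 1 RPKM was added to each value rather than 0.1, 0 of the 40 entries counted as lower and 10 as higher. Of all 11244 entries, 801 then counted as lower and 783 as higher.

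**Figure D2:**
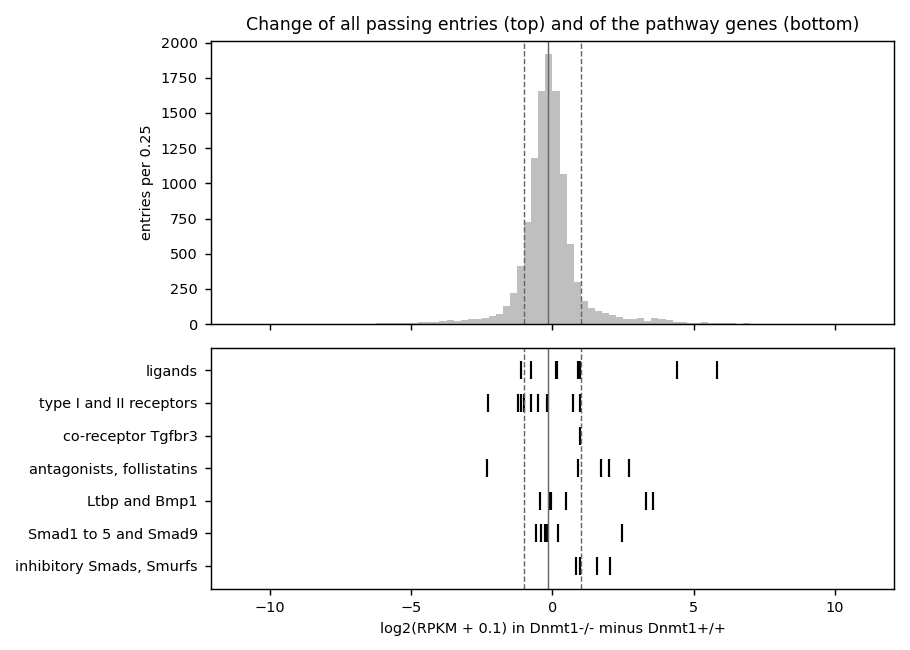
The upper panel is a histogram of the log2 change from Dnmt1+/+ to Dnmt1-/- for all 11244 entries that passed. In the lower panel each tick is one of the 40 entries of the listed genes, by role, the dashed lines mark 2-fold and the solid line the median of all entries, -0.14. Inhibitory Smads and most antagonists lie to the right of the centre and most receptors to the left.

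Dnmt1 copies methylation at CpG dinucleotides, and the CpG content of the promoters is therefore given for members that were higher and lower. RefSeq promoters of 300 bases, from 250 before to 50 after a transcription start (GRCm38.p6), were found for 36 of the listed genes, with 45 starts in all. Each start was counted separately, also where promoters of the same gene overlap. The other members, without a sequence here, are Tgfb3, Bmp2, Bmp3, Bmp7, Gdf5, Gdf6, Acvrl1, Tgfbr3, Fst, Nog, Bmp1, Smad2, Smad4 and Smad7. The 45 promoters held between 1 and 54 CpG, with a median of 27, and the median of all 32851 promoters of that length was 7, with 50% between 3 and 20. Among genes that passed the filters, the median CpG number was 26.5 for 8 promoters of genes more than 2-fold higher, 24 for 26 promoters of genes within 2-fold and 30.5 for 6 promoters of genes more than 2-fold lower. The ranges overlapped, from 1 to 43, from 3 to 51 and from 3 to 54. The bases up to the start site, and for Smad6 also the next 4, follow 5′ to 3′ on the strand of the gene for genes that were higher in Dnmt1-/- and for Acvr2a, which was lower and held the most CpG of the 45. For Gdf15, with 2 starts, the start poorer in CpG is shown. Capitals mark each CpG, except in Smad6, where they mark GTCTAGAC, a palindrome known as a Smad binding element.
Grem1: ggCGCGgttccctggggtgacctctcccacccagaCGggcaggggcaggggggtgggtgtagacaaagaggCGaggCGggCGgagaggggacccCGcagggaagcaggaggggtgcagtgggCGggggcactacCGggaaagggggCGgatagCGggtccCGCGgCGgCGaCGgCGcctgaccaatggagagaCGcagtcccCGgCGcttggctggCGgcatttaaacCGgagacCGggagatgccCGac
Nbl1: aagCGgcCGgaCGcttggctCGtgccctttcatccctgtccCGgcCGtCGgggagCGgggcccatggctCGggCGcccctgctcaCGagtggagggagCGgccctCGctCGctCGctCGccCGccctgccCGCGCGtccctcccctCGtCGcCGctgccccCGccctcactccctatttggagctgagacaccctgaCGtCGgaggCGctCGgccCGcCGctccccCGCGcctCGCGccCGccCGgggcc
Smad6: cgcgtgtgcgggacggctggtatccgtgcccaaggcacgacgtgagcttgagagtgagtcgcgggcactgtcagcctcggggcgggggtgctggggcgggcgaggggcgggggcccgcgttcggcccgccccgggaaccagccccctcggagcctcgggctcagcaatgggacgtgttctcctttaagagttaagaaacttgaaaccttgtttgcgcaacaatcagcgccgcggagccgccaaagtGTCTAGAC
Ltbp2: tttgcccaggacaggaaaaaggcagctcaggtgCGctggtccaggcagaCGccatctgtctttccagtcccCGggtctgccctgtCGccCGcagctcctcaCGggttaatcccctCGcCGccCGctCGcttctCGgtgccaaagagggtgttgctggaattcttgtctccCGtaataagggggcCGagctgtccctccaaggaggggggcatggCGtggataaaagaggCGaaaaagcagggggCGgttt
Gdf15: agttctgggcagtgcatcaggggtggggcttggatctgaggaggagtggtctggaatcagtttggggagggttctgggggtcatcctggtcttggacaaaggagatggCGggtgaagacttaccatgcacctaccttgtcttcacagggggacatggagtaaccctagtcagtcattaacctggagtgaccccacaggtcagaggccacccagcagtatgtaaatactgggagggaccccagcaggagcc
Acvr2a: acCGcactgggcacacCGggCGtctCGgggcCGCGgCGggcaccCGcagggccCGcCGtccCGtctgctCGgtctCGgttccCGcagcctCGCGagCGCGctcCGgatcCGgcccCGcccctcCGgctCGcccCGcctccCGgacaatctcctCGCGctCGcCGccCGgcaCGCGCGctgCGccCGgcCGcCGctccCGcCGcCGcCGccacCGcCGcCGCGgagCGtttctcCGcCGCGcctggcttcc
The positions in GRCm38.p6 are chr2:113758649-113758898 for Grem1, chr4:139092971-139093220 for Nbl1, chr9:64022056-64022309 for Smad6, chr12:84876492-84876741 for Ltbp2 and chr8:70632457-70632706 for Gdf15, all on the minus strand, and chr2:48813859-48814108 on the plus strand for Acvr2a. These 250 bases held 24 CpG for Grem1, 36 for Nbl1, 16 for Ltbp2, 1 for Gdf15 and 49 for Acvr2a, and the 254 bases for Smad6 held 27.

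The letters of 3 motifs were searched on both strands of the 300 bases. GTCTAGAC was found in 1 of the 45 promoters, that of Smad6, where it begins 4 bases before the start site and spans it, and in 0.213% of all promoters. CAGAC, the short form of the Smad binding element, was found in 24 of the 45 promoters (53.3%) and in 49.6% of all promoters. GGCGCC, a GC-rich sequence to which BMP-regulated Smads can bind, was found in 14 of the 45 (31.1%) and in 11.9% of all. These 14 include overlapping promoters of Ltbp4 and of Smad5, each counted separately. GGCGCC contains a CpG, and promoters of the listed genes were richer in CpG than the median promoter. A match is a description of the letters and not of binding.

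Among the ligands, BMP2 and GDF15 messages were found in Dnmt1-/- MEFs and nearly absent from Dnmt1+/+ MEFs. Bmp2, which encodes a BMP that drives bone and cartilage formation, was at 0.0164 RPKM in Dnmt1+/+ and 6.44 in Dnmt1-/-. Its log2 change of 5.81 ranked 60 from the top of the 11244 entries, and it was 2.87 with a pseudocount of 1. Bmp2 is a plus-strand gene at chr2:133377895-133388621 (NCBI37, mm9). Gdf15, a distant member of the family that cells secrete under stress, was at 0.180 RPKM in Dnmt1+/+ and 5.89 in Dnmt1-/-, a log2 change of 4.42, which ranked 128. Its promoter from the start shown above holds 1 CpG, and that from its other start holds 7. Gdf5, a ligand of joint formation, was listed at 0 in Dnmt1+/+ and reached 0.887 RPKM in Dnmt1-/-, under the minimum of 1. Gdf5 overlaps Gm15557 on the opposite strand, and it is not stated whether strand was used in assigning reads, so its value is uncertain.

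Bmp4, the most abundant BMP message in both libraries, was at 11.0 RPKM in Dnmt1+/+ and 12.4 in Dnmt1-/-. It made up 96.1% of the summed RPKM of Bmp2 to Bmp7 in Dnmt1+/+ and 65.2% in Dnmt1-/-, where Bmp2 made up 33.8%. The sum itself was 11.5 and 19.1 RPKM. Bmp4 overlaps Gm15217 and Gm15222 on the opposite strand. Gdf11, which acts through activin receptors in patterning of the body axis, was at 7.12 and 7.83 RPKM. Other BMP and GDF messages were at or near 0. Bmp6 was at 0.267 in Dnmt1+/+ and 0.202 in Dnmt1-/-. Bmp3, Bmp5, Bmp7 and Gdf10 had at most 0.0979 RPKM in Dnmt1+/+ and were listed at 0 in Dnmt1-/-, and Gdf6 was listed at 0 in both.

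The TGF-beta isoforms differed in direction. Tgfb1 was at 13.0 RPKM in Dnmt1+/+ and 24.6 in Dnmt1-/-, a log2 change of 0.92. Tgfb2 was at 4.66 and 9.28, a log2 change of 0.98. Tgfb3 was at 20.3 in Dnmt1+/+ and 12.1 in Dnmt1-/-, a log2 change of -0.74. Each of these stayed within 2-fold, but the order of the isoforms was not the same. Tgfb3 held 53.5% of their summed RPKM in Dnmt1+/+ and 26.2% in Dnmt1-/-, and Tgfb1 held 34.3% and 53.6%. The sum was 38.0 RPKM in Dnmt1+/+ and 46.0 in Dnmt1-/-. The activin subunits also went apart. Inhba, the beta A subunit, was at 6.62 RPKM in Dnmt1+/+ and at 12.7 in Dnmt1-/-, and Inhbb, the beta B subunit, was at 2.18 and 0.940, a log2 change of -1.13. Inhba thus held 75.2% of the sum of both subunits in Dnmt1+/+ and 93.1% in Dnmt1-/-.

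**Figure D3:**
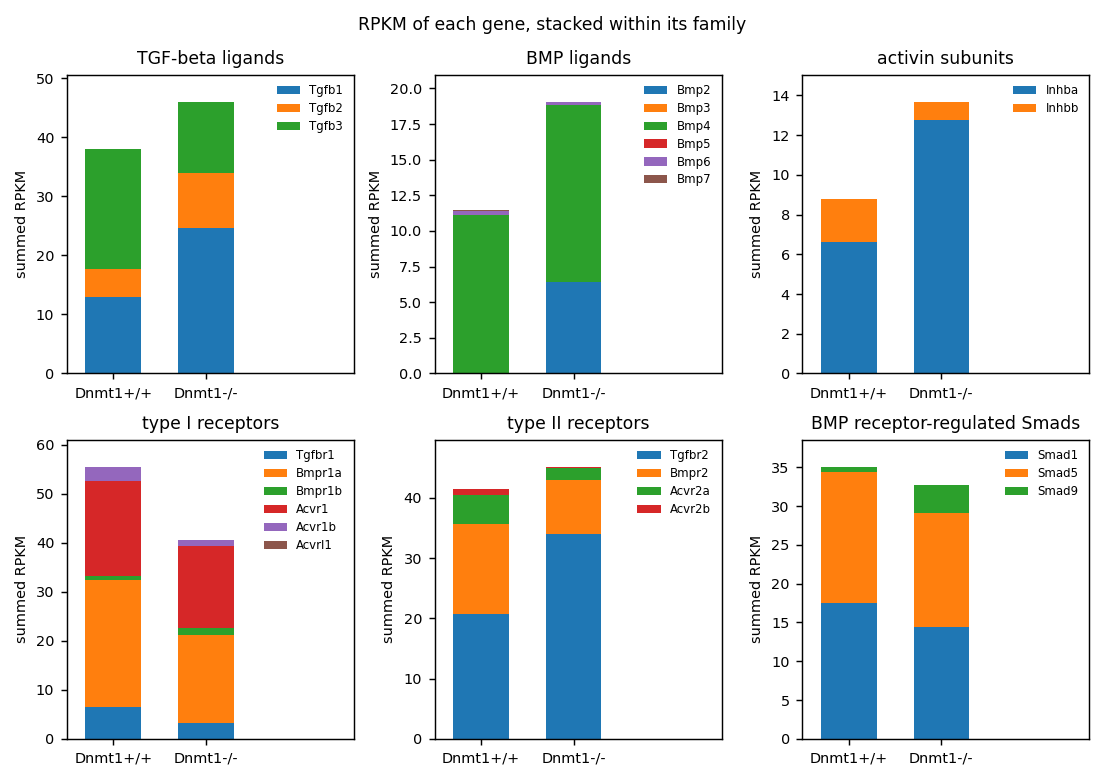
Summed RPKM of gene families in the Dnmt1+/+ and Dnmt1-/- libraries, with each gene as a stacked part of the bar. Bmp2 appears in the Dnmt1-/- bar of the BMP ligands at 6.44 RPKM, Tgfb3 gives way to Tgfb1 as the largest TGF-beta ligand, and Tgfbr2 holds most of the type II receptor bar in Dnmt1-/-.

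On the log2(RPKM + 0.1) scale 0 of the 9 type I and type II receptors that passed were higher by over 2-fold and 4 were lower, against 8.47% and 10.9% of all entries. Bmpr1b, with a ratio of 2.09 between the RPKM values, passed 2-fold with a pseudocount of 0.01 or with the overall median subtracted, and that subtraction left 2 of the 4 lower receptors, Acvr1b and Acvr2b. Of these 9 receptors 2 had a higher value in Dnmt1-/- than in Dnmt1+/+, against 40.4% of all 11244 entries. The other 7 had a lower value. Tgfbr1, the type I receptor for TGF-beta, was at 6.49 RPKM in Dnmt1+/+ and 3.16 in Dnmt1-/-, a log2 change of -1.02. Acvr1b, the activin type I receptor also called ALK4, was at 2.92 and 1.18, a log2 change of -1.24. The activin type II receptors Acvr2a and Acvr2b were both lower, Acvr2a at 4.73 and 2.11 RPKM and Acvr2b at 1.01 and 0.127. Acvr2b had the most negative change among the receptors, -2.29, and it left the count when the filter was set on the mean of both libraries. Acvr2a overlaps Orc4 on the opposite strand.

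The more abundant BMP receptors stayed within 2-fold. Bmpr1a was at 26.0 RPKM in Dnmt1+/+ and 18.1 in Dnmt1-/-, Acvr1, also known as ALK2, at 19.4 and 16.8, and Bmpr2 at 15.0 and 8.83. Bmpr1a and Acvr1 together led the type I receptors in both libraries, with 46.9% and 35.0% of the summed RPKM in Dnmt1+/+ and 44.6% and 41.4% in Dnmt1-/-. Bmpr1b was at 0.636 and 1.33 RPKM, a log2 change of 0.96, and it alone among the type I receptors had a higher value in Dnmt1-/-. The sum of the type I receptors was 55.5 RPKM in Dnmt1+/+ and 40.5 in Dnmt1-/-.

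Tgfbr2, the type II receptor for TGF-beta, went the other way from its partner Tgfbr1, with 20.7 RPKM in Dnmt1+/+ and 34.1 in Dnmt1-/-, a log2 change of 0.72. It held 49.9% of the type II receptor sum in Dnmt1+/+ and 75.5% in Dnmt1-/-, and the sum was 41.4 and 45.1 RPKM. The ratio of Tgfbr2 to Tgfbr1 RPKM was 3.18 in Dnmt1+/+ and 10.8 in Dnmt1-/-. Tgfbr3, the co-receptor betaglycan that presents TGF-beta2, was at 2.46 and 4.92 RPKM, a ratio of 2 and a log2 change of 0.97. Acvrl1, the endothelial type I receptor ALK1, was at 0.0142 RPKM in Dnmt1+/+ and 0.0127 in Dnmt1-/-. Eng, the endothelial co-receptor endoglin, had the status FAIL and was listed at 0 in both libraries, so no level is known for it. Eng overlaps Ak1 on the same strand and Fpgs on the other.

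Of the 5 secreted antagonists and follistatin-related genes that passed, 3 were higher and 1 lower by over 2-fold, against 8.47% and 10.9% of all entries. Grem1, which encodes the BMP antagonist gremlin, was at 37.0 RPKM in Dnmt1+/+ and 120.5 in Dnmt1-/-, a 3.26-fold difference. Nbl1, also called DAN, another BMP antagonist, was at 5.52 and 22.2 RPKM, a 4.02-fold difference. Together with chordin these had a summed RPKM of 42.6 in Dnmt1+/+ and 143.0 in Dnmt1-/-, and Grem1 held 86.9% and 84.2% of it. Chrd was at 0.0599 and 0.420 RPKM, under the minimum of 1 in both libraries, and it overlaps Thpo on the opposite strand. In mm9 Grem1 occupies chr2:113586321-113598803 and Nbl1 chr4:138638199-138648908, both on the minus strand.

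The follistatins differed among themselves. Fstl3, which binds activin and myostatin, was at 2.98 RPKM in Dnmt1+/+ and 19.8 in Dnmt1-/-, a 6.65-fold difference. Fst, the activin antagonist follistatin, was at 1.09 and 0.140 RPKM, a log2 change of -2.31, the most negative of the 40 entries. Fst left the count when the filter was set on the mean of both libraries. Fstl1, a secreted glycoprotein of mesenchymal cells, was the most abundant member by far, at 241.4 RPKM in Dnmt1+/+ and 455.6 in Dnmt1-/-. It stood at the percentile 98.2 of all entries that passed in Dnmt1+/+ and at 99.2 in Dnmt1-/-, and its log2 change was 0.92. Fstl3 overlaps Prss57 on the opposite strand.

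The latent TGF-beta binding proteins hold TGF-beta in the matrix in its inactive form, apart from Ltbp2, which does not bind it. Ltbp2 had 2 entries with the same locus. The first was at 2.22 RPKM in Dnmt1+/+ and 27.3 in Dnmt1-/-, a log2 change of 3.56, and the second at 2.26 and 23.1, a log2 change of 3.30. Counted by gene, 9 of 39 members were more than 2-fold higher, beside 8.47% of all entries, for which no share by gene was computed. In mm9 Ltbp2 occupies chr12:86124162-86217482 on the minus strand, and D030025P21Rik overlaps it on the plus strand. The 3 family members that bind TGF-beta stayed within 2-fold. Ltbp1 was at 78.7 and 74.9 RPKM, Ltbp3 at 40.8 and 56.9, and Ltbp4 at 11.3 and 8.37. Bmp1, which in spite of its name is a procollagen protease and not a ligand, was at 34.4 RPKM in Dnmt1+/+ and 33.3 in Dnmt1-/-.

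Inside the cell, the Smads that carry the signal were close in both libraries. Smad1 to Smad5 lay between 14.0 and 19.2 RPKM in Dnmt1+/+ and between 9.33 and 21.9 in Dnmt1-/-, with log2 changes from -0.58 for Smad3 to 0.18 for Smad2. Smad1 was at 17.5 and 14.4 RPKM, Smad2 at 19.2 and 21.9, Smad3 at 14.0 and 9.33, Smad4 at 18.0 and 13.4, and Smad5 at 17.0 and 14.7. Smad9 was the exception, at 0.581 RPKM in Dnmt1+/+ and 3.68 in Dnmt1-/-, a log2 change of 2.47. Its share of the summed RPKM of the BMP-regulated Smads was 1.66% in Dnmt1+/+ and 11.2% in Dnmt1-/-, while the sum was 35.1 and 32.8 RPKM.

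Both inhibitory Smads were more than 2-fold higher, as were 8.47% of all entries that passed. Smad6, which mainly inhibits BMP signalling, was at 4.53 RPKM in Dnmt1+/+ and 18.8 in Dnmt1-/-, a 4.14-fold difference. Smad7, which inhibits both branches, was at 4.25 and 12.7 RPKM, a 2.99-fold difference. Their sum was 8.79 RPKM in Dnmt1+/+ and 31.5 in Dnmt1-/-, beside 31.2 RPKM for Smad2 and Smad3 together in Dnmt1-/-. The Smurf ligases, which mark receptors and Smads for degradation, were also higher but within 2-fold. Smurf1 was at 16.5 and 32.3 RPKM, a log2 change of 0.96, and Smurf2 at 15.3 and 27.0, a log2 change of 0.82.

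Beyond the listed genes, 61 other genes of the pathway were looked up, of which 60 had an entry and 35 passed the filters. Of these 35, 6 were higher and 6 lower by over 2-fold, against 8.47% and 10.9% of all entries, and their median log2 change was -0.16. Most of these genes act outside the cell or at its surface. Thbs1, which encodes thrombospondin 1, an activator of latent TGF-beta, was at 65.4 RPKM in Dnmt1+/+ and 1034 in Dnmt1-/-. Lrrc32, which encodes the anchor protein GARP for latent TGF-beta, was at 4.77 and 29.7, and Amhr2, the receptor for anti-Müllerian hormone, at 0.0266 and 1.05. Chrdl1, a chordin-like BMP antagonist, was at 10.2 RPKM in Dnmt1+/+ and listed at 0 in Dnmt1-/-. Fbn2, a fibrillin of microfibrils, was at 9.78 and 0.612 RPKM, Itgb8, an integrin subunit that takes part in TGF-beta activation, at 1.49 and 0.136, Bambi, a pseudoreceptor, at 3.19 and 0.521, and Rgma, a BMP co-receptor, at 6.88 and 1.63.

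Of the 16 intracellular regulators 13 stayed within 2-fold, 2 were higher and 1 was lower. Of all entries, 8.47% were higher and 10.9% lower by over 2-fold. Pmepa1, a TGF-beta-induced inhibitor of the pathway, was at 11.8 RPKM in Dnmt1+/+ and at 56.3 in Dnmt1-/-, and Nedd4l, a ubiquitin ligase for Smads, at 2.99 and 7.07. Zfyve16, also called endofin, was at 7.53 and 3.55 RPKM. Of the 17 other ligands 1 passed the filters, and it stayed within 2-fold.

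Genes known to respond to TGF-beta went both ways. Of 15 TGF-beta target genes that passed, 5 were higher in Dnmt1-/- by more than 2-fold and 3 were lower by more than 2-fold, against 8.47% and 10.9% of all entries, with a median log2 change of 0.08. Among the higher ones were Cyr61, a matricellular protein, at 113.9 and 709.0 RPKM, Pmepa1, Timp1, an inhibitor of metalloproteinases, at 72.4 and 265.8, and Ctgf at 47.3 and 150.2. The lower ones were the matrix genes Tgfbi, at 40.7 RPKM in Dnmt1+/+ and 7.62 in Dnmt1-/-, Fn1 at 663.7 and 235.5, and Col1a2 at 1241 and 475.9. Pmepa1 is also counted among the other pathway genes, and Fn1 and Col1a2 also among the fibroblast markers, so these lists are not separate counts. Acta2, the smooth muscle actin of myofibroblasts, was at 1435 and 1348 RPKM, and Tagln at 528.6 and 586.5.

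Of 9 BMP target genes that passed, 3 were higher and 2 lower by over 2-fold, against the same 8.47% and 10.9%, with a median log2 change of 0.32. Id1, which encodes an inhibitor of basic helix-loop-helix factors and is the classic BMP target, was at 4.33 RPKM in Dnmt1+/+ and 58.1 in Dnmt1-/-. Id2 was at 2.001 and 17.6 RPKM and Atoh8 at 1.96 and 17.5. Id3, the most abundant of the Id genes, was at 97.8 and 181.0 RPKM, a log2 change of 0.89. Dlx5, a homeobox gene of bone formation, was at 3.56 and 0.0503 RPKM, and Bambi, which is counted here as well as among the other pathway genes, was also lower. Id4 and Hey1, at 0.423 and 0.880 RPKM in Dnmt1+/+ and 0.0678 and 0.319 in Dnmt1-/-, were under the minimum of 1. Smad6 and Smad7 are themselves known targets of the pathway, and they are counted among the members.

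**Figure D4:**
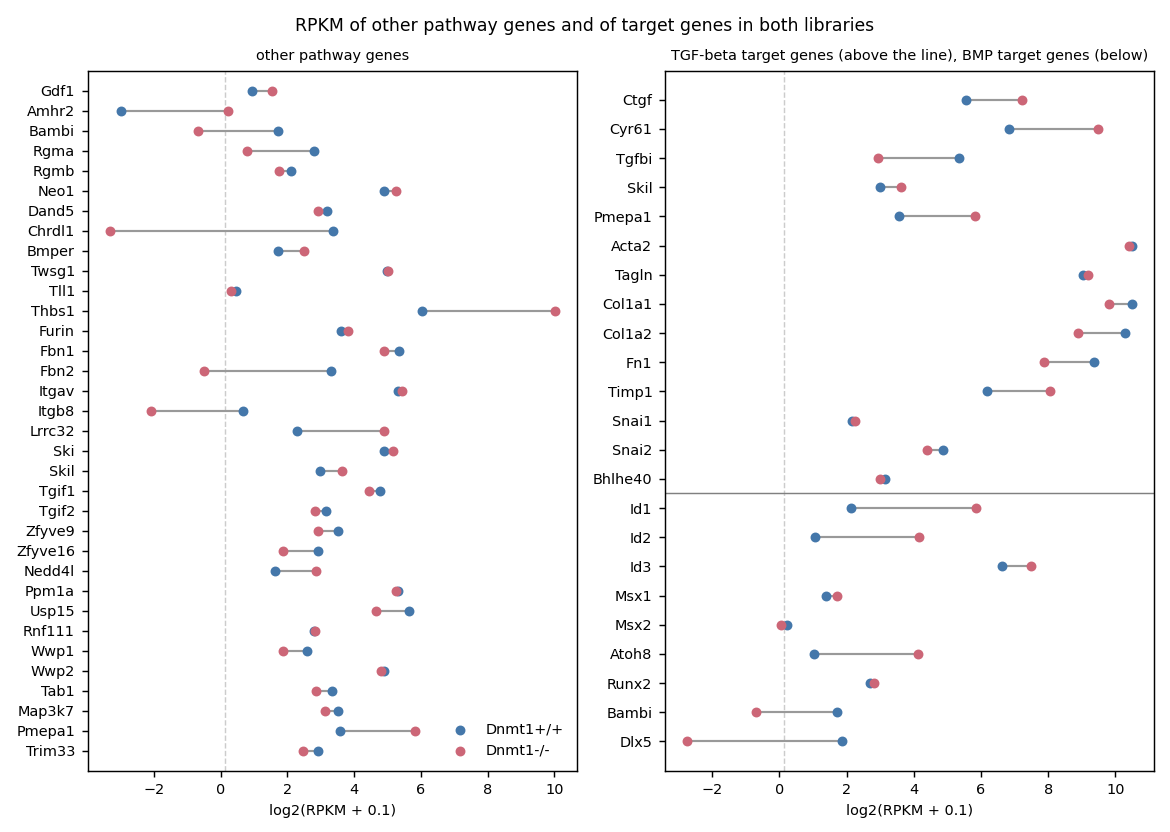
RPKM of other pathway genes (left) and of TGF-beta and BMP target genes (right) that passed the filters and are reported here, on a log2(RPKM + 0.1) axis. Blue points are the Dnmt1+/+ library, red points the Dnmt1-/- library, and the dashed line marks 1 RPKM. In Dnmt1-/-, Thbs1 and Id1 lie far to the right of their Dnmt1+/+ points. Chrdl1, listed at 0 in that library, and Dlx5 lie far to the left of theirs.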

How the data were processed

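Messenger RNA of 1 library per genotype was sequenced by the authors. Per the labels and the paper's methods, reads were mapped to mm9 with TopHat, transcripts assembled with Cufflinks and abundance measured with Cuffdiff. Versions, and the use of strand in assigning reads, are not given in the sources used here. The authors deposited RPKM values and a status for each entry. No read counts were available, so no counting interval or floor is given. The commonest ratio of Dnmt1-/- to Dnmt1+/+ RPKM, 0.914, was shared by 102 entries, and others were simple fractions of it (0.5 and 0.334), the ratios that small whole numbers of reads would give.

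Entries were matched by symbol, split on commas. Changes, filters and the 2-fold threshold are those given in the text, and no test was possible. All members were named, and of other lists the genes past 2-fold, at most 5 each way, except 2 genes that are counted but not reported here by name. The members and lists were chosen with earlier results of these data known. Promoters were from RefSeq (GRCm38.p6), gene positions from GENCODE for NCBI37, the same build as mm9. The counting of changed entries was tested on simulated data. The planted changes lay far past 2-fold and low values had been raised, so entries close to the threshold or at low RPKM were not tested. Alternatives were other pseudocounts (1 and 0.01), subtraction of the median, other RPKM filters, entries with several symbols left out, and a 1.5-fold threshold. Python 3.11.15, numpy 2.4.6, pandas 2.3.3 and matplotlib 3.10.9 were used.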

Additional observations from a re-analysis of the deposited data

How the results depend on the processing

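With a pseudocount of 1 RPKM the number of members more than 2-fold lower was 0 in place of 6, and 0 likewise for TGF-beta and activin ligands, type I receptors, type II receptors and antagonists. Of all 11244 entries, 801 were then more than 2-fold lower, in place of 1225. With a pseudocount of 0.01, 1 type I receptor, Bmpr1b, was more than 2-fold higher, against 969 of all 11244 entries. Subtracting the median change of all genes gave 17 higher and 3 lower members and a median log2 change of 0.47. Of all 11244 entries, 1092 were then higher and 965 lower. By role the subtraction gave 3 higher and 0 lower TGF-beta and activin ligands and 1 higher and 1 lower type I receptor. It also gave 1 lower type II receptor, 1 higher co-receptor and 1 higher Smurf. Without the filter on low RPKM the median change of 45 entries was 0.18. Of 11 BMP target genes, 4 were then more than 2-fold lower, against 1655 of all 14865 entries. With the filter set on the mean of both libraries the median of 37 entries was 0.48, with 1 lower type II receptor and 0 lower antagonists. Of all 10862 entries, 1074 were then more than 2-fold lower. At a 1.5-fold threshold 19 of 40 member entries were higher and 8 lower, against 1580 higher and 2670 lower of all 11244 entries. By role this threshold gave 3 higher and 2 lower TGF-beta and activin ligands. It also gave 1 higher and 2 lower type I receptors, 1 higher and 3 lower type II receptors, 1 higher co-receptor and 2 higher Smurfs. Leaving out entries with several symbols moved none of the counts of members, other pathway genes or target genes. No member past 2-fold changed direction with another pseudocount or with the median subtracted. No paired analysis was possible because each genotype has 1 library, and for the same reason no replicate could be left out. RPKM values without counts do not show how many reads a low value rests on.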

Other observations

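The 2 entries of Ltbp2 share 1 locus and differ in their entry number. Among the 20 nearest numbered entries on chromosome 12 whose gene has an annotated strand, 20 are plus-strand genes for the entry at 2.22 and 27.3 RPKM, and 20 are minus-strand genes for the entry at 2.26 and 23.1 RPKM. Ltbp2 itself is annotated on the minus strand. The table gives no strand for an entry, and whether both entries count the same transcript was not tested.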
